A study of Actinidia chinensis with 12 samples.

Results

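In ripened kiwifruit, 20 genes were more abundant in the flesh core than in the whole fruit of the cultivar Jinyan and less abundant in the flesh core than in the whole fruit of the cultivar Hongyang. They were picked from 22199 genes with enough reads to be tested, among 39040 gene identifiers. Levels are CPM, that is counts relative to a library size adjusted by trimmed mean of M values (TMM) factors, and the median CPM of the 3 libraries of a group plus 1 stood for that group. A gene was taken when the Jinyan core value was at least 2 times the Jinyan whole fruit value, the Hongyang whole fruit value was at least 2 times the Hongyang core value, and some group reached a median of at least 5 CPM. Genes that lay 8-fold or more apart between the cultivars, in the same direction in both tissues, were to be dropped, but none of the genes that met the other conditions did. The members were thus chosen on the same measurements that are described here, from all 12 libraries, and their opposite tissue differences are a description and carry no test.

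The study sequenced poly(A) RNA of fruit just harvested ripe from the tree, with 4 groups of 3 libraries: the whole fruit and the flesh core of Jinyan, and the whole fruit and the flesh core of Hongyang. The labels name no treatment, tree, fruit age or pooling, and they call the non-core samples whole fruit where the design text has fruit periphery. All 12 samples carry the organism name Actinidia chinensis. No label ties replicates to separate fruits or trees, so a p-value weighs a difference against the spread of these libraries, which may be technical.

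A kiwifruit is a berry with a green or coloured outer flesh, an inner flesh that holds the seeds and their locules, and a pale central core, the columella, which carries vascular tissue and softens later than the flesh around it. Hongyang is a red-fleshed cultivar whose anthocyanin lies in the inner flesh around the core, and Jinyan is a yellow-fleshed cultivar bred from a cross of Actinidia eriantha with Actinidia chinensis. In such bulk samples, fewer cells of a type and less RNA per cell cannot be told apart. The table pairs no identifier with a gene name, so no function is given for any of the 20 genes, and markers of seed, skin, green flesh or vascular tissue could not be read beside them.

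Library totals ran from 6870519 to 21222578 counts in 11 libraries, and Hongyang whole fruit replicate 3 had 1888744. That library also stood apart from its group: its Spearman correlation across genes was 0.896 with replicate 1 and 0.833 with replicate 2, against 0.966 to 0.980 between replicates of the other 3 groups. The biological coefficient of variation within a group was 0.550 in Hongyang whole fruit and 0.164 to 0.243 in the others. In Hongyang whole fruit replicate 3 the median member had 13 counts and 6 of the 20 had under 10, and 3 counts there equal 1.19 CPM. In the other 11 libraries the median member had from 57.5 to 371.5 counts. Counting limits cover counting error only, since reads are not independent molecules.

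Opposite differences of this size were rare in this direction. The Jinyan condition alone was met by 1316 genes and the Hongyang condition alone by 1048, and 23 met both, of which 3 had too low a level. By the same thresholds, 345 genes were higher in the core of both cultivars, 328 were lower in the core of both, and 67 were lower in the Jinyan core and higher in the Hongyang core. The ratio of core to whole fruit in Jinyan ran from 2.05 to 3.09 over the 20 genes, with a median of 2.36. The ratio of whole fruit to core in Hongyang ran from 2.02 to 4.70, with a median of 2.74. Just inside the rule stood Achn280231, with a Hongyang ratio of 2.02, and Achn304671, with 2.05. Just outside stood Achn247191, with a Jinyan ratio of 1.97, and Achn113201, with a Hongyang ratio of 1.96.

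**Figure D1:**
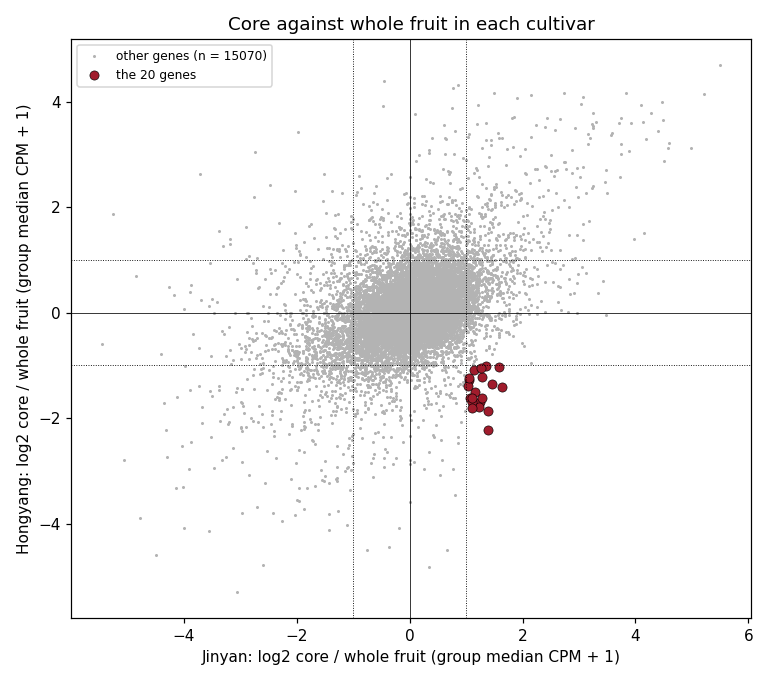
Log2 ratio of core to whole fruit in Jinyan (horizontal axis) and in Hongyang (vertical axis), each from group medians of CPM plus 1, for genes that reached a median of at least 5 CPM in some group and were not dropped. Red points are the 20 genes, grey points all others, and dotted lines mark a 2-fold difference; the 20 genes lie in the lower right corner, by choice, close to its inner edge.

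Under the rule, only the Jinyan core or Hongyang whole fruit could hold the highest group median of a member. Only Jinyan whole fruit or the Hongyang core could hold the lowest. For 15 of them the highest of the 4 group medians was that of the Jinyan core, and for 5 it was that of Hongyang whole fruit. For 16 of them the lowest group median was that of the Hongyang core, and for 4 it was that of Jinyan whole fruit. The highest group median was at least 100 CPM for 6 genes, from 20 to 100 CPM for 6 and under 20 CPM for 8.

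The most abundant member was Achn017741, which also held the second-largest value of the smaller of its tissue ratios. It stood at 1288, 1098 and 1227 CPM in the 3 Jinyan whole fruit libraries and at 2584, 3215 and 3433 CPM in the Jinyan core. In Hongyang it stood at 1315, 1106 and 490 CPM in whole fruit and at 683, 161 and 234 CPM in the core. The Jinyan groups did not overlap, whereas whole fruit replicate 3 of Hongyang lay below core replicate 1. In whole fruit the medians of the cultivars were close, at a Hongyang to Jinyan ratio of 0.902, while in the core the Jinyan median was 13.7 times the Hongyang median. This gene held 46.4 to 76.8% of the summed CPM of the 20 genes in each library. The sum of all 20 was 1696 ± 96.4 CPM (SD, n = 3) in Jinyan whole fruit, 4258 ± 442 (SD, n = 3) in Jinyan core, 1528 ± 595 (SD, n = 3) in Hongyang whole fruit, falling to 624 ± 385 (SD, n = 3) in its core. Without Achn017741 the sums were 492 ± 66.9, 1180 ± 153, 558 ± 187 and 264 ± 103 CPM (SD, n = 3 each), in the same order.

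Achn280231, the next most abundant, stood at 159, 201 and 137 CPM in Jinyan whole fruit and at 429, 408 and 271 CPM in Jinyan core. In Hongyang it stood at 52.8, 53.7 and 19.5 CPM in whole fruit and at 39.0, 18.8 and 25.7 CPM in the core. Both Hongyang groups lay below every Jinyan library, and they overlapped each other. Achn113321 had the same shape, at 107, 105 and 89.2 CPM in Jinyan whole fruit and 194, 332 and 234 CPM in Jinyan core. Its Hongyang values were 80.3, 61.4 and 30.2 CPM in whole fruit and 52.2, 17.9 and 28.5 CPM in the core, again with whole fruit replicate 3 inside the range of the core. Achn018551 had the same order of medians, at 69.6 and 144 CPM in Jinyan whole fruit and core and at 47.2 and 17.3 CPM in Hongyang whole fruit and core.

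Achn163471 had the second-largest Hongyang ratio among genes whose Hongyang groups did not overlap. It stood at 67.5, 64.2 and 49.1 CPM in Jinyan whole fruit and at 139, 139 and 154 CPM in Jinyan core. In Hongyang it stood at 144, 81.9 and 58.0 CPM in whole fruit and at 32.5, 17.5 and 22.6 CPM in the core. Within each cultivar the tissues were apart in all libraries, and the first Hongyang whole fruit library reached the level of the Jinyan core.

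Achn276951 had the largest ratio in Jinyan and the largest value of the smaller ratio. It stood at 6.56, 6.79 and 4.62 CPM in Jinyan whole fruit and at 17.3, 32.2 and 22.4 CPM in Jinyan core. In Hongyang it stood at 8.29, 6.29 and 1.59 CPM in whole fruit and at 3.99, 1.69 and 1.75 CPM in the core. The whole fruit values of the cultivars overlapped, and Hongyang whole fruit replicate 3 lay below all Hongyang core libraries. Achn304671, with the second-largest Jinyan ratio, stood at 12.5, 12.4 and 10.7 CPM in Jinyan whole fruit and at 39.1, 47.5 and 31.6 CPM in Jinyan core. Its Hongyang values were 20.5, 16.8 and 17.5 CPM in whole fruit and 13.9, 8.0 and 6.67 CPM in the core, with no overlap between tissues in either cultivar. For this gene Hongyang whole fruit replicate 3 lay between the other libraries of its group.

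Achn015611 had the largest Hongyang ratio among genes without overlap, at low levels. It stood at 1.97, 1.94 and 0.924 CPM in Jinyan whole fruit and at 8.03, 6.70 and 4.75 CPM in Jinyan core. In Hongyang it stood at 5.38, 3.97 and 4.37 CPM in whole fruit and at 2.11, 0 and 0.473 CPM in the core. Another member, Achn077371, followed it nearly library by library: the counts of both genes were equal in 5 of 12 libraries, among them 72 and 72 in Hongyang whole fruit replicate 2 and 0 and 0 in Hongyang core replicate 2. The mean absolute difference between them was 0.099 on the log2(CPM + 1) scale, against 0.325 for the next closest pair of members. The counting of reads that align to several genes was not given in the sources used here; whether these are 2 measurements or 1 is uncertain.

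The other genes highest in the Jinyan core had medians of 2.91 to 13.5 CPM in Jinyan whole fruit and 7.71 to 30.2 CPM in Jinyan core. They are Achn289501, Achn006311, Achn114211, Achn008591, Achn374151 and Achn290991, and in Hongyang their medians ran from 3.97 to 26.1 CPM in whole fruit and from 0.754 to 7.38 CPM in the core. Achn374151 was scattered in Hongyang whole fruit, at 18.5, 10.8 and 0 CPM. The 0 lay in the shallow replicate 3, whereas the 3 Hongyang core libraries stood at 1.81, 2.84 and 2.98 CPM.

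The 5 genes with their highest group median in Hongyang whole fruit differed among themselves. Achn213151 stood at 17.0, 18.3 and 15.7 CPM in Jinyan whole fruit and at 44.8, 31.6 and 42.2 CPM in Jinyan core. In Hongyang it stood at 215, 101 and 173 CPM in whole fruit and at 127, 76.9 and 83.2 CPM in the core. All Hongyang libraries lay above all Jinyan libraries, so the opposite tissue differences of its medians lay at very different levels. The Hongyang tissues overlapped, with whole fruit replicate 2 below core replicate 1. Achn294821 separated the tissues least. It stood at 0.262, 2.91 and 0.369 CPM in Jinyan whole fruit and 1.78, 1.84 and 3.44 CPM in Jinyan core. Its Hongyang values were 15.7, 19.4 and 2.38 CPM in whole fruit and 23.4, 4.96 and 6.11 CPM in the core. Its tissues overlapped in both cultivars, and its highest library was a Hongyang core library.

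The remaining 3 of these 5 genes differed in where the cores lay. Achn240201 had medians of 1.75 and 4.82 CPM in Jinyan whole fruit and core, and of 17.2 and 4.96 CPM in Hongyang whole fruit and core, so that the cores of the cultivars had nearly the same median. Achn181691 had medians of 6.67, 16.9, 28.6 and 7.52 CPM, and Achn329351 of 2.79, 8.19, 10.4 and 2.70 CPM, in the same order of groups. In both, the Hongyang core median was near that of Jinyan whole fruit, and the Jinyan core median lay between these and Hongyang whole fruit. For Achn329351 that order held for medians only. Its mean was 10.1 CPM in Jinyan core and 9.61 CPM in Hongyang whole fruit, and its highest library was Jinyan core replicate 2, at 14.7 CPM.

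**Figure D2:**
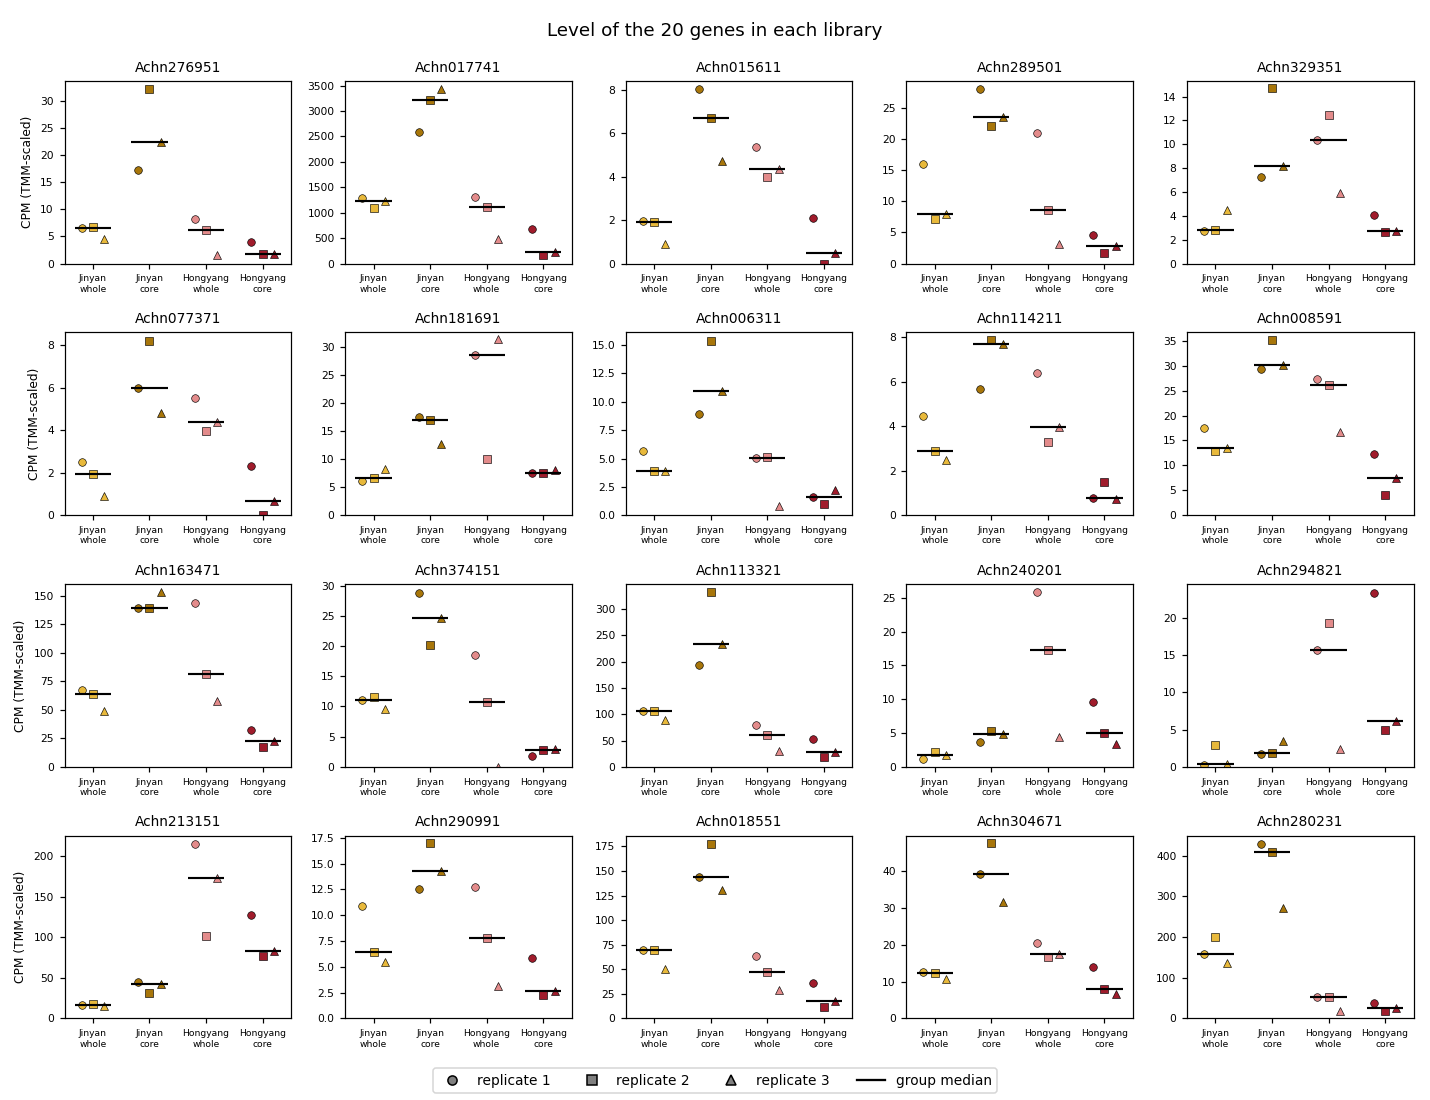
CPM (vertical axes, linear, each from 0) of each of the 20 genes in the 12 libraries, by group (horizontal axes); symbols mark replicate 1, 2 and 3 and bars the group median. Genes are ordered by the smaller of their tissue ratios, from Achn276951 to Achn280231; Jinyan core libraries lie above Jinyan whole fruit for 19 genes, whereas the Hongyang tissues overlap for 12.

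Separation of the libraries was more complete in Jinyan than in Hongyang. All 3 Jinyan core libraries lay above all 3 whole fruit libraries for 19 of the 20 genes, against 25.9% of all genes tested, and Achn294821 was the exception. All 3 Hongyang whole fruit libraries lay above all 3 core libraries for 8 of the 20, against 10.5% of all genes. These same 8 genes were apart in Jinyan as well (1.20% of all genes were apart in both in these directions): Achn015611, Achn329351, Achn077371, Achn181691, Achn114211, Achn008591, Achn163471 and Achn304671, listed after their values were seen. The rule used these values, so nothing is read from the excess over all genes.

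Within Hongyang, the libraries of each group differed among themselves over the 20 genes. Hongyang whole fruit replicate 1 lay above the highest core library for 19 of the 20 genes and replicate 2 for 18, and the shallow replicate 3 for 9. Over all genes tested the shares were 35.9%, 32.6% and 34.8%. Replicate 3 was the lowest of its group for 14 of the 20 genes, and it was the lowest for 50.2% of all genes tested. In the Hongyang core, replicate 1 was the highest library for 16 of the 20 genes, against 35.6% of all genes. On the log2(CPM + 1) scale the median member deviated from its group mean by 0.57 in Hongyang core replicate 1, by -0.41 in replicate 2 and by -0.15 in replicate 3. In Hongyang whole fruit the median deviations were 0.54, 0.17 and -0.70 for replicates 1, 2 and 3. Over all genes they were 0.06, 0.10 and -0.16 in whole fruit and within 0.01 of 0 in the core. The part of depth in the low values of whole fruit replicate 3 was not tested.

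**Figure D3:**
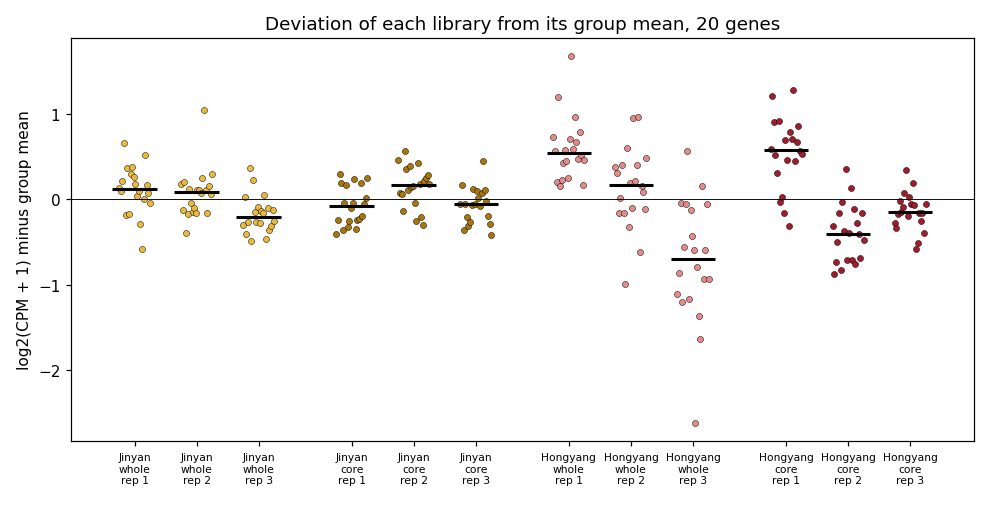
Deviation of each library from the mean of its group, in log2(CPM + 1) (vertical axis), for the 20 genes (points) in each of the 12 libraries (horizontal axis); bars mark the median over the 20 genes. The medians lie between -0.21 and 0.17 in the Jinyan libraries, and at 0.54, 0.17 and -0.70 in Hongyang whole fruit and 0.57, -0.41 and -0.15 in Hongyang core.

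Counts of calls are given for completeness, since the rule used the same contrasts. A call was an adjusted p (Benjamini-Hochberg, over all genes tested) under 0.05 in edgeR's quasi-likelihood test. In Jinyan, 11 of the 20 were called higher in the core (8.15% of all genes tested were). In Hongyang, 6 of the 20 were called lower in the core (2.18% of all genes). Both calls were made for 4 of the 20 (0.0360% of all genes, or 8 genes), which were Achn329351, Achn181691, Achn008591 and Achn163471. The interaction, the Hongyang tissue difference minus the Jinyan one, was called for 12 of the 20, in the direction that the rule fixes (1.00% of all genes were called in that direction). The fitted core minus whole fruit difference had a median of 1.26 on the log2 scale in Jinyan (all genes: 0.04) and of -1.46 in Hongyang (all genes: 0.01).

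These counts moved when single libraries were left out, and so did the calls over all genes, given here as the share called in the same direction in the same fit. The Jinyan count was 4, 3 and 3 without Jinyan whole fruit replicate 1, 2 and 3, respectively, beside 3.05%, 2.84% and 3.36% of all genes. It was 6, 4 and 5 without Jinyan core replicate 1, 2 and 3, beside 5.93%, 3.39% and 4.20%. The Hongyang count was 1, 10 and 13 when whole fruit replicate 1, 2 or 3 of Hongyang was left out, beside 0.559%, 8.80% and 3.02% of all genes. It was 2 and 1 when its core replicate 2 or 3 was left out, beside 0.662% and 0.802%. Without Hongyang core replicate 1 the median Hongyang difference of the 20 was -1.85, against -1.46 with all libraries. In that edgeR fit 19 had an unadjusted p under 0.05 (19.7% of all genes). When the 6 Hongyang libraries were fitted alone by edgeR, none of the 20 passed in Hongyang (0.288% of all genes did), with 12 at an unadjusted p under 0.05 (15.1% of all genes). DESeq2 and limma voom on all libraries called 11 and 19, beside 5.15% and 13.3% of all genes. The interaction count was 19 without the shallow Hongyang whole fruit replicate 3 and 7 without replicate 1, beside 998 and 111 of all genes, against 223 with all libraries. It was 7, 6 and 6 when Jinyan whole fruit replicate 1, 2 or 3 was left out, beside 0.279%, 0.252% and 0.279%. It was 7 when any Jinyan core replicate was left out, beside 0.410%, 0.284% and 0.437%. With Hongyang core replicate 2 or 3 left out it was 7 and 6, beside 0.270% and 0.324%. Without Hongyang whole fruit replicate 2 or core replicate 1 the median interaction of the 20 was -2.86 or -3.16, against -2.78 with all libraries.

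Membership itself also moved. Leaving out 1 library at a time left 5 genes in the list in all 12 cases: Achn017741, Achn015611, Achn077371, Achn181691 and Achn163471. Without Hongyang core replicate 2, 13 genes met the rule, 12 of them members, and without Hongyang whole fruit replicate 1, 18 met it, 10 of them members. Scaling by library totals alone left 6 genes, 4 of them members (Achn276951, Achn304671, Achn289501 and Achn077371); under that scaling the median of all genes lay at -0.40 for core minus whole fruit in Jinyan and at -0.19 in Hongyang. All 20 genes were still fitted higher in the Jinyan core and lower in the Hongyang core, with medians of 0.80 and -1.65.

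The design also asks how the cultivars differ. The difference averaged over the tissues, Hongyang minus Jinyan, comes from the same 12 libraries that chose the genes. The floor on levels acted on the same values, and the groups were not equally variable, so the counts are a description and nothing is read from their excess over all genes. The fitted difference was below 0 for 16 of the 20 genes, and 16 were called, 13 as lower and 3 as higher in Hongyang. Of all genes tested, 40.9% were called, 18.0% as lower and 23.0% as higher. Among genes that reached the level floor and would not have been dropped, 46.6% were called, 22.3% as lower and 24.4% as higher. The median log2 difference over the 20 genes was -0.95, against 0.11 over all genes. The average joined unlike tissues. In whole fruit alone the fitted difference was above 0 for 14 genes and below 0 for 6, with a median of 0.57 (all genes: 0.08). In the core alone it was below 0 for 17 and above 0 for 3, with a median of -2.77 (all genes: 0.11). With library totals alone, when the median of all genes lay at 0.30, 11 of the 20 were called lower and 3 higher, beside 2987 lower and 6499 higher of all genes instead of 3995 and 5095.

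The 2 genes furthest below were Achn280231, with a log2 difference of -2.84 ± 0.26 (SE), and Achn113321, with -1.87 ± 0.27 (SE). For both, the Hongyang mean was lower in each tissue. For Achn280231 it was 42.0 ± 19.5 against 165 ± 32.7 CPM (SD, n = 3) in whole fruit and 27.8 ± 10.2 against 369 ± 86.1 CPM (SD, n = 3) in core. For Achn113321 it was 57.3 ± 25.3 against 100 ± 9.71 CPM (SD, n = 3) in whole fruit and 32.9 ± 17.6 against 254 ± 71.0 CPM (SD, n = 3) in core. The fitted log2 difference of Achn113321 was -0.79 in whole fruit, not called, and -2.95 in the core, called. The 2 furthest above were Achn294821, at 2.89 ± 0.59 (SE), and Achn213151, at 2.27 ± 0.20 (SE). In whole fruit, Achn213151 averaged 163 ± 57.6 CPM in Hongyang and 17.0 ± 1.30 CPM in Jinyan (SD, n = 3). In the core it averaged 95.7 ± 27.3 and 39.5 ± 7.02 CPM (SD, n = 3). The third gene called higher was Achn240201, at 1.81 ± 0.37 (SE). The most abundant gene, Achn017741, stood at -1.70 ± 0.33 (SE).

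The 4 genes that were not called were Achn329351, Achn181691, Achn015611 and Achn077371, with log2 differences of -0.07 ± 0.26, 0.34 ± 0.24, -0.74 ± 0.55 and -0.67 ± 0.55 (SE). Achn015611 was called when Hongyang core replicate 1 was left out, at a log2 difference of -1.60, and with limma voom, at -1.24. Leaving out 1 library gave 14 to 18 calls among the 20, beside 35% to 46% of all genes. The 2 genes furthest below and the 2 furthest above kept their direction in every alternative run. Counts hold no sequence, so a lower level in a cultivar and reads of its alleles that failed to align cannot be told apart.

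**Figure D4:**
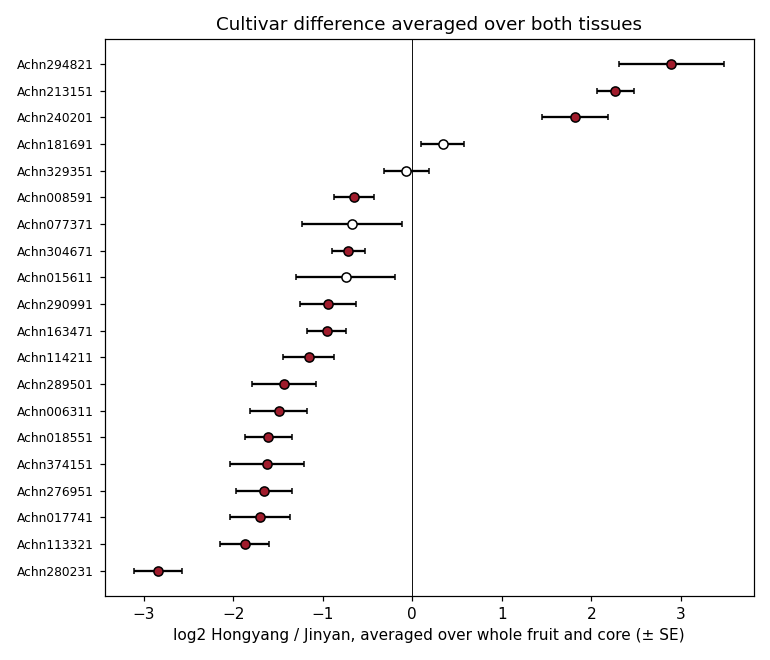
Log2 difference of Hongyang against Jinyan, averaged over whole fruit and core (horizontal axis), for each of the 20 genes (vertical axis); bars are ± 1 SE from the edgeR fit, filled points were called at an adjusted p under 0.05 and open points were not. Values run from -2.84 for Achn280231 to 2.89 for Achn294821, with 16 of the 20 below 0.

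Split by tissue, the rule itself requires the Hongyang to Jinyan ratio in whole fruit to be at least 4 times that in the core. Medians are compared here as CPM plus 1, as in the rule, which shrinks ratios at low levels. The cultivar medians were closer in whole fruit for 15 of the 20 genes and closer in the core for 5. The ratio of Hongyang to Jinyan medians in whole fruit ran from 0.337 to 12.2 with a median of 1.27, and it was within 2-fold for 14 of the 20 genes. In the core it ran from 0.0651 to 2.50 with a median of 0.209, and 17 of the 20 had a Jinyan core median at least 2 times the Hongyang one. For these 17, all 3 Hongyang core libraries lay below all 3 Jinyan core libraries (25.3% of all genes tested). The other 3 were Achn240201, Achn294821 and Achn213151, the genes called higher in Hongyang on average.

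The members differed in abundance and spread. Their mean CPM over all libraries had a median of 12.1, from 3.38 to 1400, against a median of 7.94 over all genes tested. Their fitted biological coefficient of variation had a median of 0.330, against 0.278 over all genes. It was lowest in Achn304671, at 0.228, and highest in Achn294821, at 0.672.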

How the data were processed

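RNA was extracted with CTAB, selected with oligo(dT) and fragmented, and paired-end libraries were read on an Illumina HiSeq of either of 2 models, per the labels' protocols. The model used for each library, the counter, the build and the annotation were not given in the sources used here. The submitters' processing notes name Trimmomatic 0.36 for trimming and HISAT2 2.1.0 for alignment. The authors deposited raw counts per gene, 1 column per library, matched through the description label. Even numbers made up 56.2 to 60.3% of counts from 1 to 20. No step that marks strand is named, so antisense or overlapping genes may share reads.

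In edgeR 4.0.16 (R 4.3.3), filterByExpr on the 4 groups kept genes holding 99.9% of counts. These were scaled by TMM, and 1 quasi-likelihood model with a mean per group was fitted to the 12 libraries, two-sided, with Benjamini-Hochberg adjustment over all genes tested. SEs are the absolute log2 difference over the square root of F. The fit was tested on simulated data. Alternatives were limma 3.58.1 (voom with sample weights), DESeq2 1.42.0, other scalings and filters, halved counts, a replicate block and single-library omissions.

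The members, lists and tests were chosen with earlier results of these data known. Named genes were the 2 with the largest smaller ratio, Jinyan ratio, Hongyang ratio without overlap, group median, and cultivar difference in each direction; other members are named to account for all 20. Lists of gene product names went unused, as the identifiers carry no names. Within groups, pairs of libraries differed beyond sampling noise (chi-square over its degrees of freedom from 5.76 to 126).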

Additional observations from a re-analysis of the deposited data

Results flagged for a closer look

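Of the 20 genes, 12 had a tissue difference called different between the cultivars by edgeR's interaction test (1.00% of all genes, same direction). With 1 library left out, the count ran from 6 to 19. The Hongyang minus Jinyan difference was -3.30 ± 0.63 (SE) on the log2 scale for Achn276951, -2.79 ± 0.66 for Achn017741, -3.24 ± 0.43 for Achn163471, -1.99 ± 0.39 for Achn213151 and -2.69 ± 0.38 for Achn304671. It was -3.22 ± 0.71 for Achn289501, -3.24 ± 0.52 for Achn329351, -2.73 ± 0.49 for Achn181691 and -2.76 ± 0.63 for Achn006311. It was -3.32 ± 0.56 for Achn114211, -2.72 ± 0.46 for Achn008591 and -2.38 ± 0.51 for Achn018551. The genes were chosen for opposite tissue differences, so these values describe the choice and are no independent evidence of it. No test for single outlying samples was run in these groups of 3 libraries. Libraries that stood apart in correlation, rank or deviation are described above.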

How the results depend on the processing

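The rule was met by 20 genes as stated and by 6 with library totals, 4 of them members. It was met by 0 genes at a ratio of 3 and by 131 at a ratio of 1.5. Library totals leave out the TMM factors. These were 1.081 to 1.111 in Jinyan whole fruit and 0.730 to 0.879 in Jinyan core. In Hongyang they were 0.986 to 1.336 in whole fruit and 0.979 to 1.005 in core. Why the factors differed between the Jinyan tissues was not tested. Other settings gave 15 (group means, 11 of them members) to 28 (an offset of 0.5), and single-library omissions 13 to 27. Thinning to equal depth, chosen after seeing the data, gave 26 genes, 9 of them members. Leaving out Hongyang whole fruit replicates 2 and 3 together, also chosen then, left replicate 1 alone in that group. Replicate 1 was the lowest of its group for 0 of the 20 genes. That run could thus hardly lose a member, and its count is not given. The Jinyan count of 11 was 3 with library totals, 18 with voom and 19 with the 6 Jinyan libraries alone (3.00%, 18.5% and 15.4% of all genes), and 3 to 16 without 1 library. The Hongyang count of 6 was 10 with halved counts, 11 with DESeq2, 19 with voom and 0 with the 6 Hongyang libraries alone (3.15%, 5.15%, 13.3% and 0.288% of all genes), and 1 to 13 without 1 library. The interaction count of 12 was 19 without the low-count filter, with DESeq2 and with voom (0.846%, 3.43% and 6.28% of all genes), and 6 to 19 without 1 library. Why these counts of calls moved was not tested. The averaged cultivar count of 16 ran from 14 to 18 over all alternatives, beside 30.2% to 55.4% of all genes. Achn294821, at -0.22 in Hongyang, ranged from -1.27 to 0.15 without 1 library: it reversed to a log2 core minus whole fruit difference of 0.15 without whole fruit replicate 2 and of 0.14 and 0.09 without core replicate 2 and 3.

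Deviations of same-numbered libraries from their group means correlated at -0.071 to 0.245 across genes, and 3 of 18 exceeded 0.1. With groups of 3, these values cannot settle whether replicate numbers pair the libraries. A replicate block gave 12, 7, 13 and 16 calls for Jinyan, Hongyang, the interaction and the cultivars. Of all genes, 15.8%, 3.85%, 1.97% and 39.2% were called there, in either direction. Depth limits Hongyang whole fruit replicate 3 most.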
